A study of Mus musculus with 4 samples.

Results

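The 10 genes described here encode proteins that astrocytes secrete or shed and that are known to act on synapses. They are the thrombospondin genes Thbs1, Thbs2, Thbs3 and Thbs4, the SPARC family genes Sparc and Sparcl1, the glypican genes Gpc4, Gpc5 and Gpc6, and the BMP antagonist gene Chrdl1. They were chosen by name from the 53379 genes of the deposited count table, through the symbols of the mm10 GENCODE annotation, and all 10 passed the filter on low counts that left 18838 tested genes. The samples were cortical astrocyte cultures of C57BL/6 mice, 2 labelled Npas3-/- and 2 wild type, dissociated on postnatal day 0 and taken for total RNA at day 14 in vitro, after daily shaking over 7 days to remove other cells, and replating. How the Npas3 allele was made, and whether the cultures of a genotype came from separate animals, is not given in the sources used here, so the p-values may reflect technical spread alone.

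Astrocytes are known to control the building of excitatory synapses in steps. Thrombospondins are large multimeric matrix glycoproteins that promote new synaptic contacts through a neuronal calcium channel subunit encoded by Cacna2d1. SPARC-like 1, also called hevin, promotes contacts between neurexin and neuroligin proteins, and SPARC is known to oppose it. Glypicans 4 and 6 are heparan sulfate proteoglycans that bring AMPA-type glutamate receptors to the synapse, and chordin-like 1 promotes the later exchange of AMPA receptor subunits.

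Libraries held between 82965565 and 86932708 counts. Levels are given in CPM (counts scaled to a common library size after TMM normalisation), and a positive log2 fold change means a higher level in Npas3-/-. Npas3, a bHLH-PAS transcription factor gene, had 2055 and 1386 counts in Npas3-/-, against 5129 and 8739 counts in wild type, so it was lower but not absent in both libraries labelled Npas3-/-. Its log2 fold change was -1.82 (edgeR adjusted p = 0.0181), and -0.57 with the correction for base composition described next (edgeR adjusted p = 0.154). Across all tested genes 33.1% passed an adjusted p of 0.05 in the quasi-likelihood test of edgeR (Benjamini-Hochberg), 11.6% as higher and 21.5% as lower in Npas3-/-. Fold changes followed transcript base composition, with a Spearman's rho of 0.67 between log2 fold change and transcript GC content over 18817 tested genes, which are not independent and share the same 4 libraries. Values are therefore also given from a fit corrected for transcript GC content and length. In bulk RNA, fewer cells of a type and less RNA per cell cannot be told apart.

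Of the 10 genes 1 rose (Thbs3) and 2 fell (Thbs1 and Chrdl1) in Npas3-/-, near the share of all tested genes given above, and 7 did not pass. The median log2 fold change was -0.27 over the 10 genes and -0.070 over all tested genes. For 6 of the 10, 2 higher and 4 lower in Npas3-/-, no CPM value of one genotype lay within the range of the other, as for 75.8% of all tested genes (35.7% higher and 40.1% lower). With the GC and length correction edgeR's quasi-likelihood test called 0 of the 10, against 8.79% of all tested genes (5.71% higher, 3.08% lower), and 3 had an unadjusted p below 0.05 (Thbs1, Thbs2 and Thbs3). In both fits with the same sign 0 of the 10 were called, against 5.32% of all tested genes. DESeq2 called 4 of the 10 (Sparc added), against 44.4% of all tested genes. The corrected median was 0.30 for the 10 genes and 0.088 for all tested genes.

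**Figure D1:**
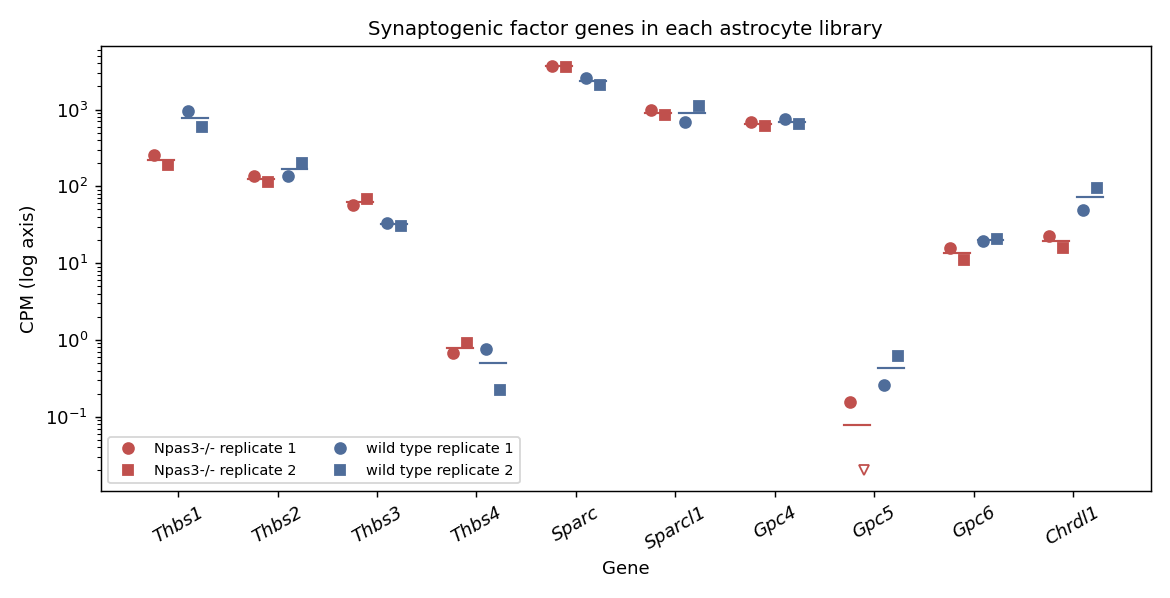
Level of each of the 10 genes in each of the 4 libraries, in CPM on a log axis, with bars at genotype means of 2 libraries and an open triangle for the library with 0 counts of Gpc5. Thbs1, Chrdl1, Gpc5 and Gpc6 lie lower and Thbs3 and Sparc higher in both Npas3-/- libraries, while Thbs2, Thbs4, Sparcl1 and Gpc4 overlap.

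Thbs1 (ENSMUSG00000040152.8, mm10 chromosome 2, 118111876 to 118127133, plus strand), a trimeric thrombospondin gene, had 253 and 189 CPM in Npas3-/-, against 958 and 600.2 CPM in wild type, each pair being replicates 1 and 2. Both Npas3-/- libraries lay below both wild-type libraries, although the wild-type libraries themselves differed 1.60-fold. Its mean was 221 ± 45.7 CPM in Npas3-/- and 779 ± 253 CPM in wild type (SD, n = 2 each), and the log2 fold change -1.82 (SE 0.32; edgeR adjusted p = 0.0174). With both the correction and a block for the replicate number it was -1.14 (edgeR adjusted p = 0.0420). In the corrected fit without that block it stood at -1.20 (95% interval -1.90 to -0.49, edgeR adjusted p = 0.0578), with no overlap of the corrected levels. Leaving out Npas3-/- replicate 2 gave -1.62 (edgeR adjusted p = 0.1004). Of its merged exon bases 208 overlap Gm29233 on the opposite strand, which had 10 counts in wild-type replicate 2 and 0 in the other libraries.

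Thbs2 (ENSMUSG00000023885.8, chromosome 17, 14665500 to 14694235, minus strand), the other trimeric thrombospondin gene, had 137 and 113 CPM in Npas3-/-, against 137 and 202 CPM in wild type. The genotypes overlapped, since replicate 1 of each had nearly the same level. The log2 fold change was -0.44 (95% interval -1.09 to 0.21; edgeR adjusted p = 0.235). With the correction its sign turned, to 0.53 (edgeR adjusted p = 0.134).

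Thbs3 (ENSMUSG00000028047.11, chromosome 3, 89215180 to 89226837, plus strand), a pentameric thrombospondin gene, had 57.4 and 68.01 CPM in Npas3-/-, against 33.5 and 30.8 CPM in wild type. The gap between the genotypes was wider than that between libraries of either one. The log2 fold change was 0.96 (SE 0.21; edgeR adjusted p = 0.0266), and 0.51 with the correction (edgeR adjusted p = 0.0976). The call was lost without any 1 of the 4 libraries, at log2 fold changes of 0.84 to 1.08 and edgeR adjusted p of 0.0512 to 0.178. Of its 4823 merged exon bases 318 overlap Mtx1, a mitochondrial import gene, on the opposite strand, where reads are uncertain because the strand setting of the counting is not given. Mtx1 had 58.7 and 72.8 CPM in Npas3-/-, against 40.4 and 31.7 CPM in wild type, a log2 fold change of 0.87 (edgeR adjusted p = 0.0434), and -0.092 with the correction.

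Thbs4 (ENSMUSG00000021702.7, chromosome 13, 92751590 to 92794818, minus strand), another pentameric thrombospondin gene, had 56 and 70 counts in Npas3-/-, against 68 and 21 counts in wild type. The groups overlapped at these low counts, and the 95% interval of its log2 fold change, -1.30 to 2.66, spans large differences in either direction.

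The promoters of Thbs3, which was called, and of Thbs2, which was not, are shown to set the starts of 2 relatives side by side. They come from RefSeq on GRCm38.p6 and run from 250 bases before to 50 after the gene's start, on the strand of the gene, at chr3:89214930-89215229 (plus) and chr17:14694213-14694512 (minus). Capitals mark matches, on either strand, to the motifs named after the sequences.
Thbs3: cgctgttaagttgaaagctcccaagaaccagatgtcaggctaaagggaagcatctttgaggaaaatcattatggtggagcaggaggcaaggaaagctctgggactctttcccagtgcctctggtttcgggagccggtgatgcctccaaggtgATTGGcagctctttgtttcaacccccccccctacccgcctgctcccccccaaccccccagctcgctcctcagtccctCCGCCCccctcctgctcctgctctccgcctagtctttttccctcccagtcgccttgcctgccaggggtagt
Thbs2: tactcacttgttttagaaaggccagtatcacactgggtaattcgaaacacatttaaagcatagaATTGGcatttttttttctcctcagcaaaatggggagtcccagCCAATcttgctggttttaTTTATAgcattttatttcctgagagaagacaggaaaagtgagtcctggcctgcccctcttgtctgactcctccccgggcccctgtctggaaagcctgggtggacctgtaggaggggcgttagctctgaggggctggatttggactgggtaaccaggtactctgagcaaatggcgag
The Thbs3 window holds CCAAT, the core of the CCAAT box, and the GC box GGGCGG, both on the reverse strand. That of Thbs2 holds CCAAT on both strands and the TATA-box sequence TATAAA on the reverse strand. Among 32851 promoters of the same length 37.4% hold CCAAT, 35.7% hold GGGCGG and 13.6% hold TATAAA on either strand. ACGTG, a core bound by bHLH-PAS factors, is in 19.6% of all these promoters and in 0 of the 6 that the table holds for the 10 genes (Thbs2, Thbs3, Thbs4, Sparc, Gpc4 and Gpc5), which says only that these letters are not in those windows.

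Levels of different genes were compared per kb of merged exons. On this scale the 4 thrombospondins summed to 73.4 CPM per kb and 61.5 CPM per kb in Npas3-/-, against 184 CPM per kb and 134 CPM per kb in wild type, lower in both Npas3-/- libraries. Of this sum Thbs1 made up 56.9% and 50.5% in Npas3-/-, against 85.5% and 73.7% in wild type. Thbs3 made up 16.2% and 22.9% in Npas3-/-, against 3.76% and 4.76% in wild type. Neither share overlapped between the genotypes, nor did that of Thbs1 after the GC and length correction, at 57.1% and 54.1% in Npas3-/-, against 85.4% and 73.1% in wild type. Thbs1 exceeded Thbs2 per kb by 2.14-fold and 1.93-fold in Npas3-/-, against 8.09-fold and 3.43-fold in wild type. These shares are given as a description, with no test.

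**Figure D2:**
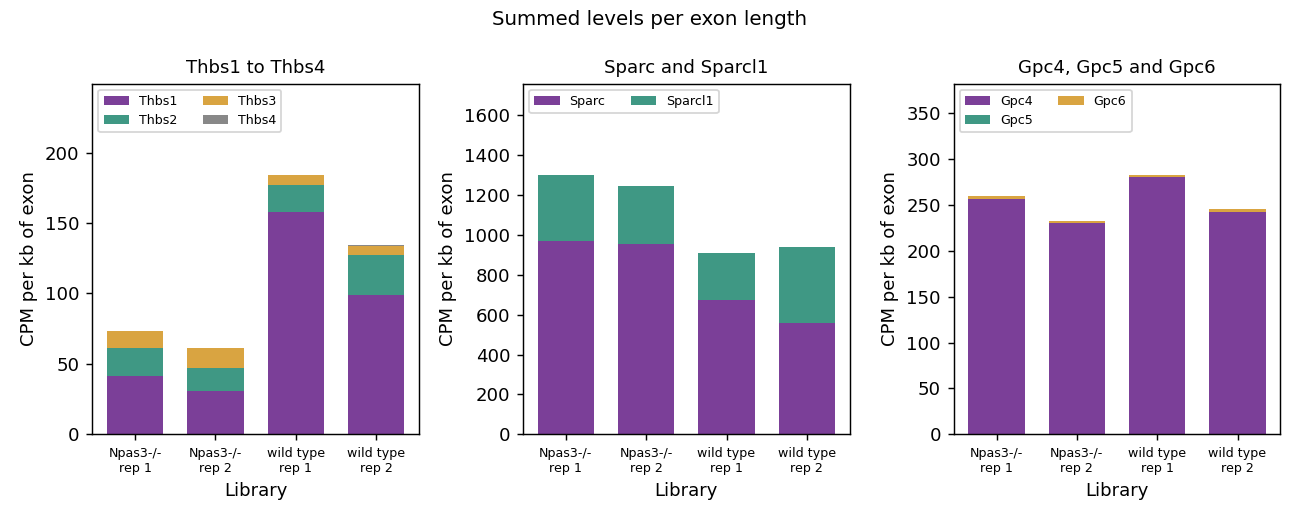
Summed level of Thbs1 to Thbs4, of Sparc and Sparcl1, and of Gpc4, Gpc5 and Gpc6 in each library, in CPM per kb of merged exons, stacked by gene. The thrombospondin stack is lower in both Npas3-/- libraries, and Gpc4 makes up nearly all of the stack of these 3 glypican genes, which leaves out Gpc1, Gpc2 and Gpc3.

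Sparc (ENSMUSG00000018593.13, chromosome 11, 55394500 to 55423183, minus strand), a collagen-binding matrix glycoprotein gene, had 3676 and 3610.4 CPM in Npas3-/-, against 2559 and 2114 CPM in wild type. The genotypes did not overlap, and the Npas3-/- libraries were close to each other. The log2 fold change of 0.64 (95% interval 0.062 to 1.22) did not pass with edgeR's quasi-likelihood test (adjusted p = 0.0821). DESeq2 gave an adjusted p of 0.02004, and edgeR with the replicate number as a block gave 0.136. With 1 library left out the log2 fold change ran from 0.49 to 0.77. In the corrected fit of all 4 libraries it was 0.32 (edgeR adjusted p = 0.253).

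Sparcl1 (ENSMUSG00000029309.7, chromosome 5, 104079111 to 104113733, minus strand), the hevin gene, had 973 and 851 CPM in Npas3-/-, against 691 and 1124 CPM in wild type. Both Npas3-/- values lay between the wild-type ones, which differed 1.63-fold. The mean was 912 ± 86.7 CPM in Npas3-/- and 908 ± 306 CPM in wild type (SD, n = 2 each), a log2 fold change of 0.0070 with a 95% interval of -0.73 to 0.75 (edgeR adjusted p = 0.989). In the corrected fit it was 0.51 (95% interval -0.14 to 1.16; edgeR adjusted p = 0.255). Sparc exceeded Sparcl1 per kb by 2.93-fold and 3.29-fold in Npas3-/-, against 2.87-fold and 1.46-fold in wild type. With the correction the ratio was 2.28-fold and 2.37-fold in Npas3-/-, against 3.71-fold and 2.01-fold in wild type, so that the wild-type libraries lay on either side of the Npas3-/- ones.

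Gpc4 (ENSMUSG00000031119.4, chromosome X, 52053021 to 52165252, minus strand) dominated the summed level per kb of Gpc4, Gpc5 and Gpc6, with a share of 99.03% and 99.3% in Npas3-/-, against 98.9% and 98.6% in wild type. Among all 6 glypican genes, with Gpc1, Gpc2 and Gpc3 added, its share was 85.9% and 83.6% in Npas3-/-, against 89.6% and 90.1% in wild type. It had 681 and 611 CPM in Npas3-/-, against 743 and 644 CPM in wild type, with the groups overlapping. Its log2 fold change was -0.10 (95% interval -0.63 to 0.42; edgeR adjusted p = 0.733), and -0.12 with the correction (95% interval -0.53 to 0.29).

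Gpc6 (ENSMUSG00000058571.11, chromosome 14, 116925315 to 117976544, plus strand), which like Gpc4 acts on AMPA receptors, had 15.9 and 11.03 CPM in Npas3-/-, against 19.2 and 20.6 CPM in wild type. Both Npas3-/- libraries were below wild type, with a log2 fold change of -0.56 (95% interval -1.29 to 0.17) that did not pass (edgeR adjusted p = 0.183). The corrected value was -0.29 (edgeR adjusted p = 0.450). Gpc5 (ENSMUSG00000022112.14, chromosome 14, 115092215 to 116525179, plus strand), another glypican gene, had 13 and 0 counts in Npas3-/-, against 23 and 57 counts in wild type. The 0 in Npas3-/- replicate 2 allows a level of up to 0.0390 CPM (3 counts, counting error only). The 95% interval of its log2 fold change, -6.41 to 1.54, includes 0 (edgeR adjusted p = 0.275).

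Chrdl1 (ENSMUSG00000031283.16, chromosome X, 143285674 to 143394262, minus strand), the chordin-like 1 gene, had 22.6 and 15.7 CPM in Npas3-/-, against 49.6 and 95.3 CPM in wild type. The genotypes did not overlap, and the wild-type libraries differed 1.92-fold. The mean was 19.1 ± 4.90 CPM in Npas3-/- and 72.5 ± 32.4 CPM in wild type (SD, n = 2 each), and the log2 fold change -1.92 (SE 0.39; edgeR adjusted p = 0.0232). The sign turned with the GC and length correction, to 0.29 (95% interval -0.12 to 0.71; edgeR adjusted p = 0.301). Its transcript has 40.99% GC, the lowest of the 10 genes, and the library trend fitted at its GC content and length was a log2 difference of -2.16. The edgeR adjusted p was 0.0517 without Npas3-/- replicate 1 and 0.116 without Npas3-/- replicate 2.

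**Figure D3:**
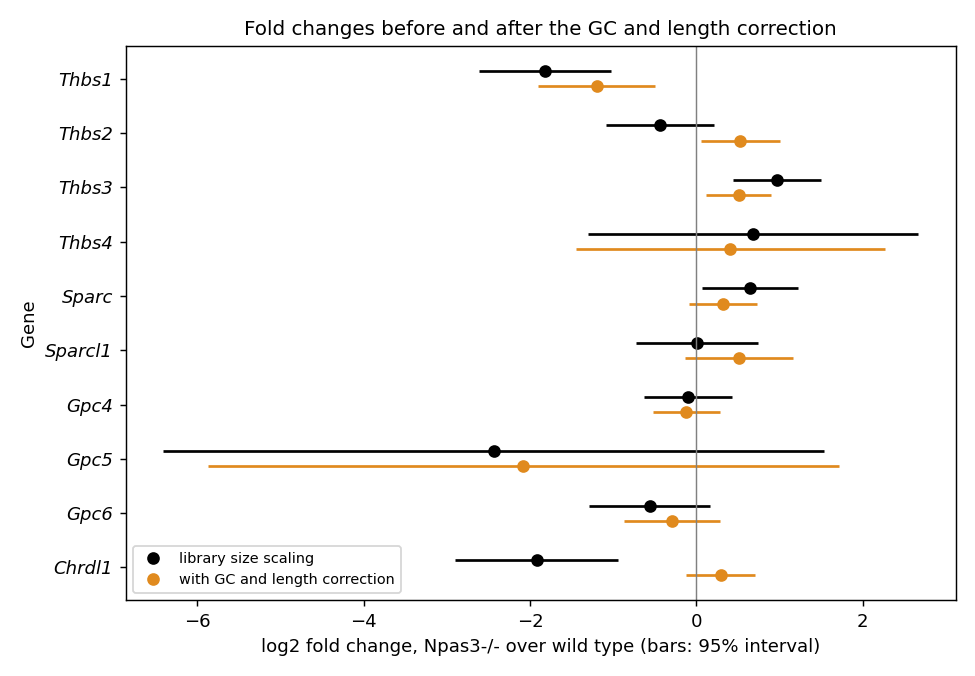
Log2 fold change of each of the 10 genes, Npas3-/- over wild type, with its 95% interval, from the edgeR fit without and with the GC and length correction. Thbs1 lies below 0 in both fits, at -1.82 and -1.20, while Chrdl1 lies at -1.92 and then at 0.29.

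Over the 10 genes Spearman's rho between log2 fold change and transcript GC content was 0.70, and 0.67 over the 8 genes with at least 5 CPM, as a description over genes that share the same 4 libraries. Among these 8 Thbs3, with 55.96% GC, had the highest fold change and Chrdl1 the lowest. Thbs1 and Gpc6 both have 49.9% GC and differ in fold change, at -1.82 and -0.56. The trend fitted at GC content and length was -0.65 for Thbs1, whose transcript is 5848 bases long, and -0.28 for Gpc6, with 3488 bases. After the correction 8 of the 10 genes showed no overlap between genotypes, where 62.2% of all tested genes did so. Thbs2, Thbs3, Sparc, Sparcl1 and Chrdl1 were then higher and Thbs1, Gpc5 and Gpc6 lower in both Npas3-/- libraries.

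**Figure D4:**
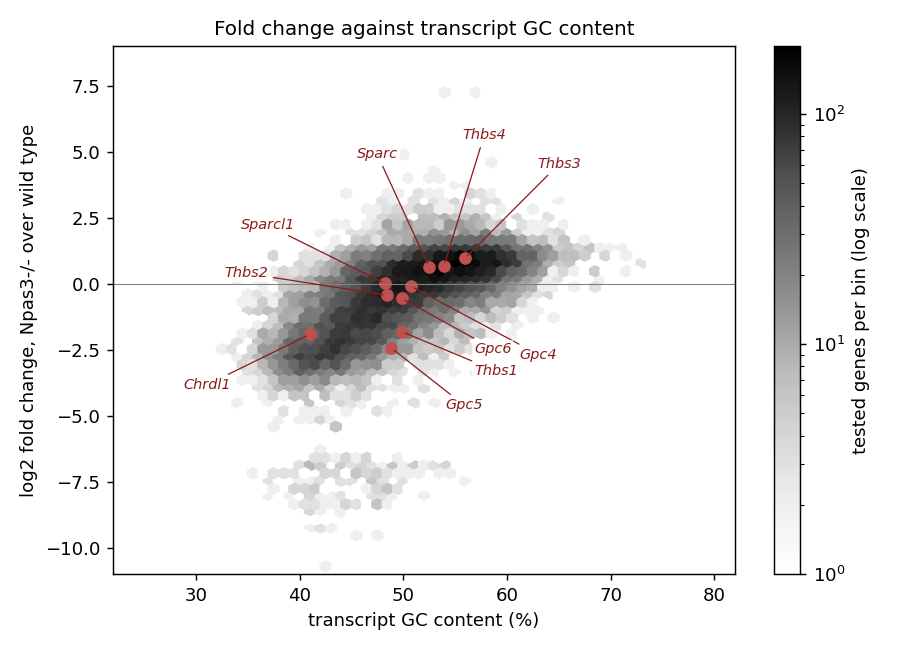
Log2 fold change, Npas3-/- over wild type, against transcript GC content in percent, for all tested genes and for the 10 genes. The 10 genes run with the cloud from Chrdl1 at 40.99% GC to Thbs3 at 55.96% GC, and Thbs1 lies below Gpc6 at the same GC content.

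The order of levels per kb was similar in the 4 libraries. Sparc came first everywhere, with 970.4 and 953 CPM per kb in Npas3-/-, against 676 and 558 CPM per kb in wild type. Sparcl1 had 331 and 289.6 CPM per kb in Npas3-/-, against 235 and 383 CPM per kb in wild type. Gpc4 had 257 and 230.5 CPM per kb in Npas3-/-, against 280.2 and 243 CPM per kb in wild type, above Sparcl1 in wild-type replicate 1 only. Thbs1 and Thbs2 came next in every library. Thbs3 had 11.9 and 14.1 CPM per kb in Npas3-/-, against 6.94 and 6.38 CPM per kb in wild type. Chrdl1 had 3.35 and 2.32 CPM per kb in Npas3-/-, against 7.33 and 14.1 CPM per kb in wild type, below Thbs3 in both Npas3-/- libraries and above it in both wild-type libraries, narrowly so in wild-type replicate 1. This exchange of order was not seen with the correction, where Thbs3 exceeded Chrdl1 per kb by 1.67-fold and 2.11-fold in Npas3-/-, against 1.60-fold and 1.64-fold in wild type.

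The 6 lists of relatives and partners held 83 tested genes, of which 10 rose and 23 fell, 39.8% against the 33.1% of all tested genes. With the correction 8 were higher and 4 lower. Of 10 tested relatives 3 rose and 0 fell. Their log2 fold changes had a median of 0.29, and of 0.46 with the correction. Comp, the cartilage thrombospondin gene, had 2.26 and 3.97 CPM in Npas3-/-, against 0.507 and 0.812 CPM in wild type. The SPARC-related gene Smoc1 had 14.99 and 12.5 CPM in Npas3-/-, against 5.69 and 6.84 CPM in wild type. Chrd, which encodes the BMP antagonist chordin, had 15.1 and 16.4 CPM in Npas3-/-, against 7.30 and 5.07 CPM in wild type. These 3 rose, at log2 fold changes of 2.24 for Comp, 1.14 for Smoc1 and 1.34 for Chrd. With the correction they stood at 1.41, 0.87 and 0.75, with no overlap between genotypes, as for 62.2% of all tested genes. They had been named for the smallest p-values of their list. In the corrected fit edgeR's quasi-likelihood test called 0 of the 10 (adjusted p of 0.126, 0.0952 and 0.102 for these 3).

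Of 21 tested receptors and synaptic partners 0 rose and 7 fell. Their median log2 fold change was -0.094, and 0.28 with the correction. The integrin gene Itgb1 had 466 and 390.3 CPM in Npas3-/-, against 1119 and 997 CPM in wild type. Itgav, another integrin gene, had 62.996 and 49.96 CPM in Npas3-/-, against 143 and 246 CPM in wild type. The neuroligin gene Nlgn1 had 1.97 and 1.47 CPM in Npas3-/-, against 8.12 and 18.2 CPM in wild type. Cacna2d1, the calcium channel subunit gene described above, was named after its values were seen. It had 5.18 and 3.40 CPM in Npas3-/-, against 9.99 and 12.9 CPM in wild type (log2 fold change -1.41, edgeR adjusted p = 0.0374). All 4 fell, and all 4 turned sign with the correction, to 0.13, 0.41, 0.055 and 1.11, where none of them passed. In that fit 3 of the 21 were higher and 1 lower. Cd47, also named after its values were seen, was among the higher ones (1.58, edgeR adjusted p = 0.0251). It had 68.1 and 67.7 CPM in Npas3-/-, against 90.2 and 119 CPM in wild type. Without the correction its log2 fold change was -0.62 and did not pass (edgeR adjusted p = 0.0743). Cd36 and Lrp1 passed in neither fit.

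Of 10 tested genes of shedding and cleavage 1 rose and 7 fell, at a median of -1.32, and -0.46 with the correction (1 higher, 2 lower). The metalloprotease gene Adam9 had 53.3 and 47.8 CPM in Npas3-/-, against 248 and 238 CPM in wild type. Adam10 had 23.8 and 14.6 CPM in Npas3-/-, against 95.9 and 137 CPM in wild type. Adamts5 had 6.34 and 6.45 CPM in Npas3-/-, against 22.6 and 25.4 CPM in wild type. All 3 fell without overlap, but they were named for the smallest p-values of the list. Of all tested genes, which were not picked in this way, 40.1% were lower in Npas3-/- without overlap, so no comparison is drawn. In the corrected fit Adam9 passed at -1.17 (edgeR adjusted p = 0.0246), while Adam10 stood at -0.51 and Adamts5 at 0.38 without passing.

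Glypicans carry heparan sulfate chains, and of 18 tested genes that make or edit them 2 rose and 4 fell, at a median of 0.078, and 0.20 with the correction. The epimerase gene Glce had 6.59 and 4.56 CPM in Npas3-/-, against 20.7 and 22.1 CPM in wild type. The sulfotransferase gene Hs6st2 had 2.40 and 1.81 CPM in Npas3-/-, against 10.001 and 10.7 CPM in wild type. The sulfatase gene Sulf1 had 51.9 and 35.6 CPM in Npas3-/-, against 134 and 124 CPM in wild type. These 3 fell and did not pass with the correction, where 2 of the 18 were higher and 1 lower.

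Of 9 tested BMP ligands and antagonists 0 rose and 1 fell, at a median of -0.64. In the corrected fit 0 passed and the median was -0.71. The fallen gene was the ligand gene Bmp5, with 0 and 0 CPM in Npas3-/-, against 0.450 and 0.353 CPM in wild type. Its wild-type mean was 10.7-fold a floor of 3 counts per Npas3-/- library, with the spread of wild type left out. Bmp2, another ligand gene, had 0.290 and 0.740 CPM in Npas3-/-, against 1.75 and 2.51 CPM in wild type. Bmper, a BMP-binding protein gene, had 13.5 and 11.9998 CPM in Npas3-/-, against 19.3 and 29.8 CPM in wild type. Neither Bmp2 nor Bmper passed (edgeR adjusted p = 0.0587 and 0.0639).

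Of 15 other tested astrocyte-secreted synapse regulators 4 rose and 4 fell, at a median of -0.051, and 0.68 with the correction. Apoe, the lipid carrier gene, had 1569 and 1575 CPM in Npas3-/-, against 498 and 482 CPM in wild type, and rose. Il33, a cytokine gene, had 1.96 and 1.52 CPM in Npas3-/-, against 8.30 and 8.75 CPM in wild type, and fell. Wnt5a, a Wnt ligand gene, had 17.2 and 13.1 CPM in Npas3-/-, against 41.3 and 55.04 CPM in wild type, and fell. With the correction 2 of the 15 were higher and 0 lower, and Apoe, Il33 and Wnt5a did not pass, at 0.72, -0.64 and -0.21.

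**Figure D5:**
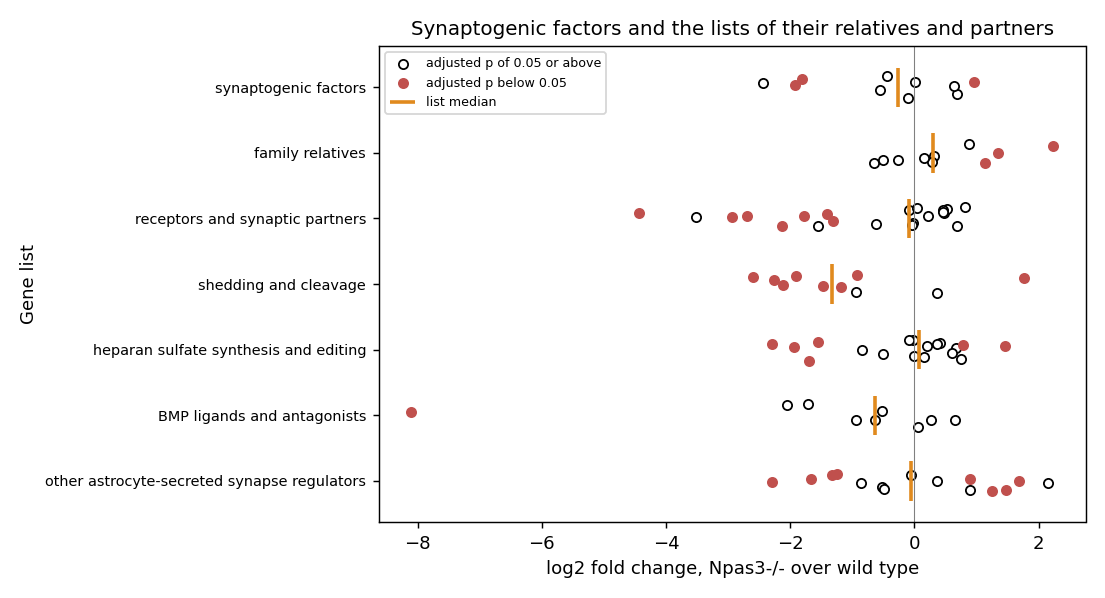
Log2 fold change, Npas3-/- over wild type, of each tested gene in the list of the 10 genes and in the lists of relatives and partners, filled where the adjusted p was below 0.05, with bars at list medians. The shedding and cleavage list has the lowest median, -1.32, and the lowest point of the BMP list is a fitted value for Bmp5 that depends on the prior count.

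All 10 astrocyte markers were tested, and 3 rose and 3 fell, where 11.6% of all tested genes rose and 21.5% fell. With the correction 3 were higher and 2 lower, where 5.71% and 3.08% of all tested genes were. Their median log2 fold change was -0.099, and 0.13 with the correction. Summed, they reached 6922 and 7126 CPM in Npas3-/-, against 3899 and 4944 CPM in wild type. The intermediate filament gene Gfap had 1871 and 1899.7 CPM in Npas3-/-, against 613 and 656 CPM in wild type, and Aldoc had 1445 and 1519 CPM in Npas3-/-, against 260.4 and 374 CPM in wild type, and both rose. The gap junction gene Gja1 had 37.8 and 28.96 CPM in Npas3-/-, against 172 and 228 CPM in wild type, and fell.

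Sparc, Thbs1 and Thbs2 are also known from fibroblasts and vessel cells. The 8 mural and fibroblast markers summed to 1624 and 1704 CPM in Npas3-/-, against 1643 and 613 CPM in wild type, with 0 higher and 3 lower of 7 tested (Rgs5, Col3a1 and Dcn). Acta2, the most abundant of them, had 1334 and 1359 CPM in Npas3-/-, against 1243 and 270.2 CPM in wild type. Wild-type replicate 2 thus stood apart for Acta2, but the 3 lower markers were higher in it than in wild-type replicate 1. In wild type Rgs5 had 3.82 and 11.5 CPM, Col3a1 18.9 and 29.7 CPM, and Dcn 0.541 and 1.46 CPM. Without wild-type replicate 2 the log2 fold change was -2.13 for Thbs1, -0.15 for Thbs2, 0.89 for Thbs3 and 0.49 for Sparc. It was 0.38 for Sparcl1, -0.22 for Gpc4, -0.53 for Gpc6 and -1.39 for Chrdl1. With the correction and without that library it was -1.54 for Thbs1, 0.77 for Thbs2, 0.56 for Thbs3 and 0.26 for Sparc. Sparcl1 then stood at 0.91, Gpc4 at -0.20, Gpc6 at -0.24 and Chrdl1 at 0.28. The part of these markers in the results was not tested.

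Neuron markers summed to 87.5 and 106 CPM in Npas3-/-, against 98.7 and 85.3 CPM in wild type, with 0 higher and 2 lower of 6 tested (Syt1 and Map2). Tubb3, the most abundant of them over the 4 libraries, had 65.2 and 79.6 CPM in Npas3-/-, against 45.9 and 21.9 CPM in wild type, and did not pass. Map2 had 4.43 and 1.82 CPM in Npas3-/-, against 36.4 and 45.03 CPM in wild type, and fell also with the correction, at -2.63 (edgeR adjusted p = 0.0246). Syt1 had 0.966 and 0.610 CPM in Npas3-/-, against 5.19 and 3.41 CPM in wild type, and Gad1, which did not pass, had 0.435 and 0.0909 CPM in Npas3-/-, against 1.25 and 2.78 CPM in wild type. Rbfox3, which marks neurons, had 0 and 0 counts in Npas3-/-, against 4 and 25 counts in wild type, and Snap25 had 0 and 0 counts in Npas3-/-, against 5 and 35 counts in wild type. The part of the neuron markers in the results was not tested. Oligodendrocyte lineage markers summed to 311 and 301 CPM in Npas3-/-, against 303 and 259 CPM in wild type, with Mog at 0 in all 4 libraries. Microglia markers summed to 4.70 and 4.91 CPM in Npas3-/-, against 3.14 and 2.19 CPM in wild type. Of 7 tested microglia markers edgeR's quasi-likelihood test called 0, and 0 had an unadjusted p below 0.05. Endothelial markers summed to 14.3 and 10.1 CPM in Npas3-/-, against 10.9 and 8.61 CPM in wild type, with 0 higher and 1 lower of 5 tested (Tek). The wild-type mean of Tek was 12.4-fold a floor of 3 counts per Npas3-/- library, with the spread of wild type left out.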

How the data were processed

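The authors deposited whole-number read counts per gene for 2 Npas3-/- and 2 wild-type astrocyte cultures; the submitters' processing notes name Trimmomatic 0.3.8, HISAT2 2.1.0, featureCounts and mm10, with no strand setting. Gene IDs were matched to GENCODE symbols (53274 of 53379). Genes passing filterByExpr (18838) were tested with edgeR 4.0.16 (quasi-likelihood, TMM, R 4.3.3), with Benjamini-Hochberg adjustment over all of them, a threshold of 0.05 and 2 residual degrees of freedom. The GC and length correction fitted, per library, natural splines with 6 degrees of freedom each in transcript GC content and log2 length to deviations of log2 CPM (pseudocount 2), and entered them as offsets. Alternatives were DESeq2 1.42.0, limma-voom (limma 3.58.1), other filters, a replicate block and leaving out each library; scripts were tested on simulated data. All 10 genes are named, and from each partner or marker list the 3 genes with the smallest p, plus the most abundant for other cell types, were eligible. Members and lists were chosen with earlier results of these data known. Intervals and floors cover counting error only where said. Promoter windows come from RefSeq; 6 of the 10 genes have one in the table. The calls in the oligodendrocyte lineage list are not reported here.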

Additional observations from a re-analysis of the deposited data

How the results depend on the processing

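Without a filter on low counts 27026 genes were tested, and with a mean of at least 5 CPM only 8 of the 10 genes were. Over all tested genes edgeR called 6425 with DESeq2's size factors and 5979 with a mean of at least 5 CPM, and limma-voom called 6036. The number of the 10 genes called, 3 in the edgeR fit, was also 3 in these settings and without a filter on low counts, and 4 with DESeq2 (Sparc added). It was 0 with the GC and length correction, 1 with that correction and the replicate block, 0 at an adjusted p below 0.01, and 0 to 3 with 1 library left out. Over all tested genes the count was 3997 without a filter (1018 higher), 1656 with the correction (1076 higher), 1139 with the correction and the replicate block, 0 at an adjusted p below 0.01 and 0 to 5832 with 1 library left out. It was 2425 without Npas3-/- replicate 1 and 2991 without wild-type replicate 2. Without Npas3-/- replicate 2 edgeR called 0 genes, with 5728 at an unadjusted p below 0.05, 2 of them among the 10 genes. With the correction edgeR called 0 genes without Npas3-/- replicate 1 or 2, with 4470 and 3683 at an unadjusted p below 0.05. Replicate numbers are shared between the genotypes. Deviations of same-numbered samples from their genotype means correlated at r = -0.16 over 18838 genes. These genes are not independent and share the same 4 libraries, so this value cannot show whether the numbers pair the samples. With the replicate number as a block 2 of the 10 genes (0 higher, 2 lower) and 2560 of all genes (314 higher) were called, and Thbs3 lost its call. A crossed pairing, chosen after seeing the data, gave 3 of the 10 genes and 7670 of all genes. Log2 fold changes of some genes turned sign with the GC and length correction, without and with the replicate block. Among the 10 genes these were Thbs2 (0.53 and 0.54) and Chrdl1 (0.29 and 0.29). Others included Itgb1 (0.13 and 0.16), Nlgn1 (0.055 and 0.055), Itgav (0.41 and 0.41) and Cacna2d1 (1.11 and 1.16). Adamts5 (0.38 and 0.38), Olig2 (-0.59 and -0.59), Tmem119 (-0.17 and -0.18) and Mtx1 (-0.092 and -0.093) did so too. More list genes turned sign with the correction alone, among them Cd47 (-0.62 to 1.58), Fstl1 (-0.26 to 0.44), Gpc2 (0.28 to -0.24) and Lrp1 (-0.094 to 0.072). Sparcl1 was -0.049 with a mean of at least 5 CPM. With 1 library left out, with or without the correction, log2 fold changes spanned Adamts5 -2.01 to 0.70, Cacna2d1 -1.75 to 1.55, Chrdl1 -2.33 to 0.38, Glce -2.23 to 0.078, Gpc4 -0.22 to 0.0044, Itgav -2.14 to 0.46, Itgb1 -1.44 to 0.42, Kdr -0.19 to 1.46, Mtx1 -0.10 to 1.03, Nlgn1 -3.42 to 0.22, Olig2 -0.68 to 0.29, P2ry12 -3.42 to 0.46, Pdgfra -0.0052 to 2.44, Pecam1 -0.037 to 1.30, Sparcl1 -0.32 to 0.91, Thbs2 -0.71 to 0.77, Thbs4 -0.16 to 1.79, Tmem119 -0.42 to 1.00, Tubb3 -0.038 to 1.71. The cause of these shifts was not tested. Thbs4 and Gpc5 had at most 70 counts in any library, and whether depth limited their tests was not tested.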

Other observations

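Of the 83 partner genes 6 passed in both the corrected and the uncorrected fit, with the same sign, where 5.32% of all tested genes did so. They are named here after their values were seen. Notum, a secreted enzyme gene of the shedding and cleavage list, had 162 and 239.9 CPM in Npas3-/-, against 72.97 and 44.9 CPM in wild type. Ptx3, a pentraxin gene, had 234 and 313 CPM in Npas3-/-, against 109.97 and 86.6 CPM in wild type. Both were higher in Npas3-/-, at corrected log2 fold changes of 0.97 and 1.32. The gelatinase gene Mmp2 had 30.2 and 25.01 CPM in Npas3-/-, against 59.4 and 65.6 CPM in wild type. Xylt1, which starts glycosaminoglycan chains, had 27.6 and 15.9 CPM in Npas3-/-, against 71.3 and 70.3 CPM in wild type. The neurexin gene Nrxn3 had 0.157 and 0.0779 CPM in Npas3-/-, against 1.34 and 3.84 CPM in wild type. These and Adam9 were lower in Npas3-/-, at corrected log2 fold changes of -1.61 for Mmp2, -1.04 for Xylt1, -3.12 for Nrxn3 and -1.17 for Adam9.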
